A study of Mus musculus with 8 samples.

Results

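The 10 genes described here encode proteins by which myeloid cells are recognised: the lysozymes Lyz1 and Lyz2, the growth factor receptors Csf1r, Csf3r and Csf2ra, the surface receptor Cd33, and the transcription factors Cebpa, Cebpb, Spi1 and Gfi1. They were taken by gene symbol, with every probe set that the array annotation gives to that symbol alone, which made 16 of the 45101 probe sets and 10 of the 18193 named genes. The cells were bone marrow progenitors sorted as LIN-, FLT3+, CD127+ and LY6D- (LY6D-negative common lymphoid progenitors, CLP) from C57bl/6 mice aged 10 to 13 weeks. There were 4 arrays of E2A-KO cells (E2A knockout, the product of Tcf3), 2 of HEB-KO cells (HEB knockout, the product of Tcf12) and 2 of wild type (WT) cells. The labels call each array a biological replicate and state that marrows were pooled in a sort, so the spread measured is that between pools and not between single mice. How the alleles were made is not given in the labels.

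Common lymphoid progenitors stand at the branch between lymphoid and myeloid fates, and many early lymphoid progenitors carry low amounts of myeloid transcripts before they commit. PU.1, the product of Spi1, and the C/EBP factors are the regulators best known for opening the myeloid program, in which they act on growth factor receptor and lysozyme genes, while Gfi1 is a repressor that takes part in both neutrophil and lymphoid development. E2A and HEB are E proteins, basic helix-loop-helix factors that bind DNA at the E-box.

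The promoters of Cd33, Lyz1 and Lyz2, the gene that passed the test below and the lysozyme pair described with it, are printed here to show where E-box letters lie. RefSeq promoter entries matched 8 of the 10 genes, Gfi1 with 2 windows, and Csf1r and Spi1 were not matched. The 250 bases before the start are given 5′ to 3′ on the minus strand of GRCm38.p6, and capitals mark each CANNTG, the E-box letters, which read the same on both strands.
Cd33, chr7:43533172-43533421, minus strand: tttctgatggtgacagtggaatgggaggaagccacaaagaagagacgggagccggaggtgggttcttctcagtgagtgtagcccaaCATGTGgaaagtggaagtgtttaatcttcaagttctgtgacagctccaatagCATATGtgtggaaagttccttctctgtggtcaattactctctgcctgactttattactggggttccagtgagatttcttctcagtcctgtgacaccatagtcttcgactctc
Lyz1, chr10:117292869-117293118, minus strand: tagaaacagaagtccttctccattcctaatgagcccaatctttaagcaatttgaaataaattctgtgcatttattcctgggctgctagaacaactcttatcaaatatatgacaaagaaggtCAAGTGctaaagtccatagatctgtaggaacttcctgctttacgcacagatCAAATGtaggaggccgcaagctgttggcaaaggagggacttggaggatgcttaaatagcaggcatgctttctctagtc
Lyz2, chr10:117282273-117282522, minus strand: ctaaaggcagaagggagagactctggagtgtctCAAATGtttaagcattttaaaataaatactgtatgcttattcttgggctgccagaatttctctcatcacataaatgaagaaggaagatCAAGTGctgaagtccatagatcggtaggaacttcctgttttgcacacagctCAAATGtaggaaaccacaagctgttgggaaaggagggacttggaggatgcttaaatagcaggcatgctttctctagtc
CANNTG occurred 2 times before Cd33, 2 times before Lyz1 and 3 times before Lyz2, and the letters CAAGTG and CAAATG stood at the same distance from the start in both lysozyme genes. At least 1 CANNTG was found in 6 of the 9 windows of the listed genes and in 66.2% of 32851 RefSeq promoter windows of the same length. The letters GAGGAA, a form bound by PU.1, were present on either strand in 3 of the 9 windows, Cd33, Csf3r and Csf2ra, and in 23.3% of all windows. TTNNGNAA, a form bound by C/EBP, was present on either strand in 4 of the 9 windows and in 36.8% of all windows. These are matches of letters only, and no binding was measured in these samples. Lyz1 and Lyz2 lie next to each other on chromosome 10, and their 250-base windows were identical at 200 of 252 aligned positions (79.4%).

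All levels below are log2 of the deposited RMA intensity of a probe set, and all differences are on that log2 scale. Per array the median level lay between 3.91 and 3.95 for E2A knockout, at 3.82 and 3.84 for HEB knockout and at 3.86 and 3.89 for WT cells. The hybridization control signal, from RNA added to every labelled sample, lay between 11.52 and 12.62 on E2A knockout arrays, at 10.32 and 11.60 on HEB knockout and at 11.40 and 10.29 on WT arrays. The 3′ over 5′ signal of actin, a sign of RNA quality, lay between 3.86 and 4.78 log2 units on E2A knockout, at 3.37 and 3.58 on HEB knockout and at 4.45 and 3.84 on WT arrays, so that E2A knockout arrays were above both HEB knockout arrays and overlapped with WT; its part in the differences below was not tested. The targeted genes were lowest where the labels place their loss: Tcf3 read 3.99 ± 0.24 in E2A knockout (SD, n = 4) against 7.87 ± 0.15 in WT cells (n = 2), and Tcf12 read 6.79 ± 0.43 in HEB knockout against 8.81 ± 0.06 in WT cells (n = 2 each). The sort marker Flt3 read between 10.12 and 11.05 on the 8 arrays. Ly6d, which encodes the antigen the cells were gated negative for, read 6.75, 4.48, 4.26 and 6.88 on E2A knockout, 7.52 and 3.63 on HEB knockout and 3.53 and 7.83 on WT arrays, and was thus high on E2A_KO replicates 1 and 4, HEB_KO replicate 1 and WT replicate 2, against the LY6D- label. HEB_KO replicate 1 and WT replicate 2 also stood apart in Rag1, a recombinase gene, at 8.49 and 9.57 against 3.41 to 5.98 on the other 6 arrays. The differences without these 2 arrays are given below. E2A_KO replicates 1 and 4 stay in that setting, so its only arrays with high Ly6d are of E2A knockout cells. The part of Ly6d is thus not removed from those differences, and it was not tested. Of the markers of common lymphoid progenitors, 9 of 10 lay above the array median on all 8 arrays and Rag1 on 6, and of those of monocytes and macrophages 9 of 12 did so on at least 2 arrays, Itgam, Adgre1 and Mrc1 on none.

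**Figure D1:**
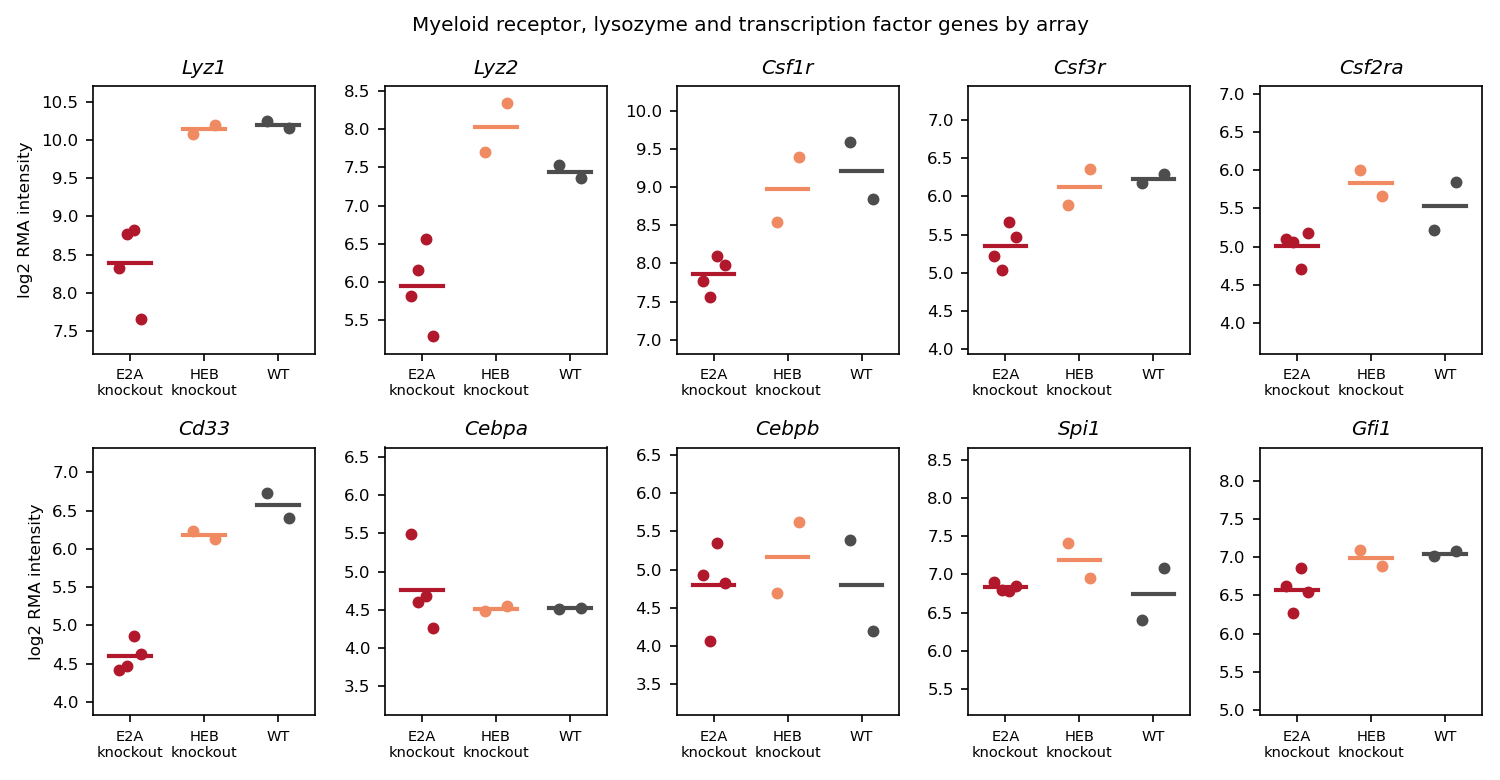
Log2 RMA intensity (y axis, each panel spanning the same range of log2 units) of the brightest probe set of each listed gene on the 4 E2A knockout, 2 HEB knockout and 2 WT arrays; points are arrays and lines group means. The E2A knockout arrays lie below all others for Lyz1, Lyz2, Csf1r, Csf3r, Csf2ra, Cd33 and Gfi1, and overlap with WT for Cebpa, Cebpb and Spi1.

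Loss of E2A was set against WT to ask how these myeloid transcripts stand in progenitors without the factor. The surface receptor Cd33 fell 3.93-fold, and Lyz1, Lyz2, Csf1r and Csf3r were lower by 3.50-, 2.81-, 2.56- and 1.84-fold without passing the test over all genes. Of the transcription factors, none of which passed, Spi1 differed by 0.09, Cebpb by 0.00, Cebpa by 0.24 and Gfi1 by -0.47. Of the 10 genes, 1 was called lower and none higher by limma at an adjusted p under 0.05, where 0.393% of the 11957 tested genes were called lower and 0.0502% higher. An unadjusted p under 0.05 was reached by 5 of the 10, all lower, against 9.8% of all tested genes that were lower at this level. The arrays of both genotypes lay apart for 7 of the 10, each with E2A knockout below WT, a pattern seen in 15.4% of tested genes. The 7 include Csf2ra by its brightest probe set, while its other probe set overlapped. Without HEB_KO replicate 1 and WT replicate 2 the difference was -1.86 for Lyz1, -1.58 for Lyz2, -1.73 for Csf1r and -0.83 for Csf3r. The median difference of the 10 genes was -0.70, beside -0.05 over all tested genes. The genes were chosen with such values known, so these counts describe them and test nothing about the list. In whole pools of cells, fewer cells that carry a transcript and less of it per cell cannot be told apart.

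Cd33, a sialic acid binding receptor of myeloid cells and their progenitors, read 4.41, 4.46, 4.87 and 4.63 on the E2A knockout arrays 1 to 4, 6.24 and 6.12 on the HEB knockout arrays and 6.74 and 6.40 on the WT arrays. Every E2A knockout array lay more than 1 log2 unit below every other array, and the WT arrays were the highest. It fell by 1.97 in E2A knockout against WT cells (SE 0.22, 95% interval -2.48 to -1.47, limma adjusted p = 0.0131), and by 1.59 against HEB knockout cells (SE 0.22, limma adjusted p = 0.0459). The gene has a single probe set, which also passed against WT when all 45037 non-control probe sets were tested (limma adjusted p = 0.0282, with 0.0688% of probe sets called lower), a call lost without any single array other than E2A_KO replicate 3. Over genes the call against WT was lost without WT replicate 1 (difference -1.81, adjusted p = 0.1303), without WT replicate 2 (-2.14, adjusted p = 0.1536), without both WT replicate 2 and HEB_KO replicate 1 (-2.14, adjusted p = 0.3836) and with the hybridization control signal as a covariate (-2.21, adjusted p = 0.2230). Over 20 settings the adjusted p ran between 0.0073 and 0.3836, and the difference between -2.21 and -1.81. The call against HEB knockout cells was lost without any single array other than E2A_KO replicate 3, with differences from -1.68 to -1.53 over the 8 arrays left out in turn.

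The lysozymes, enzymes that cut bacterial cell walls, differed by similar amounts. Lyz2, the macrophage lysozyme, read 5.81, 6.15, 6.56 and 5.29 on the E2A knockout arrays, 7.70 and 8.34 on the HEB knockout arrays and 7.53 and 7.36 on the WT arrays. The E2A knockout arrays were lowest and the HEB knockout arrays highest, with no overlap between the genotypes. The difference was -1.49 against WT (SE 0.35, limma adjusted p = 0.1184) and -2.07 against HEB knockout cells (SE 0.35, limma adjusted p = 0.0818), neither past the threshold. The difference between HEB knockout and WT cells was 0.58 (SE 0.41), with a 95% interval of -0.34 to 1.50 that includes 0.

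Lyz1, best known from Paneth cells of the gut, read 8.33, 8.77, 8.82 and 7.66 on the E2A knockout arrays, 10.08 and 10.20 on the HEB knockout arrays and 10.25 and 10.15 on the WT arrays at its brightest probe set, 1436996_x_at. HEB knockout and WT arrays overlapped, and the E2A knockout arrays lay at least 1 log2 unit below both. The difference against WT was -1.81 (SE 0.33, limma adjusted p = 0.0612). The second probe set, 1439426_x_at, gave -1.61 (SE 0.37). The third, 1450822_at, read between 2.70 and 2.81 on E2A knockout, at 2.95 and 2.92 on HEB knockout and at 3.03 and 2.81 on WT arrays, below the array median throughout, and gave -0.17 (SE 0.14). In the array maker's naming, probe sets ending in _x_at hold probes that also match other sequences. The paralog Lyz2 may be among them, and whether the first 2 probe sets also read Lyz2 was not tested. The mean over all 3 probe sets differed by -1.19.

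Among the E2A knockout arrays, the Lyz2 probe set and both Lyz1 _x_at probe sets read lowest on E2A_KO replicate 4 and highest on E2A_KO replicate 3. Whether these are separate signals was not tested. Each of these probe sets read lower on E2A_KO replicates 1 and 4, which had high Ly6d, than on E2A_KO replicates 2 and 3. The part of Ly6d in the lysozyme values was not tested. Lyz1 1450822_at, below the array median, was highest on E2A_KO replicate 1. The 14 neutrophil granule genes summed to a linear intensity of 5025, 5561, 5242 and 2601 on the 4 E2A knockout arrays. The sum was 4538 and 6722 on HEB knockout and 2540 and 3059 on WT arrays. Among the E2A knockout arrays it was also lowest on replicate 4, and 3 of the 4 lay above WT. Mpo, the brightest of the 14 on every array, weighed most in this sum. On the E2A knockout arrays S100a8 read 3.69, 3.90, 8.63 and 3.11, and Ngp 3.21, 4.16, 8.65 and 4.71. Both were highest on E2A_KO replicate 3, as the lysozymes were, while Mpo was highest on E2A_KO replicate 1 and Ctsg on E2A_KO replicate 2. The part of neutrophil granule genes in the lysozyme values was not tested. Without E2A_KO replicate 3 the Lyz1 difference was -1.95 (adjusted p = 0.0380), with adjusted p between 0.0206 and 0.5447 over 20 settings.

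**Figure D2:**
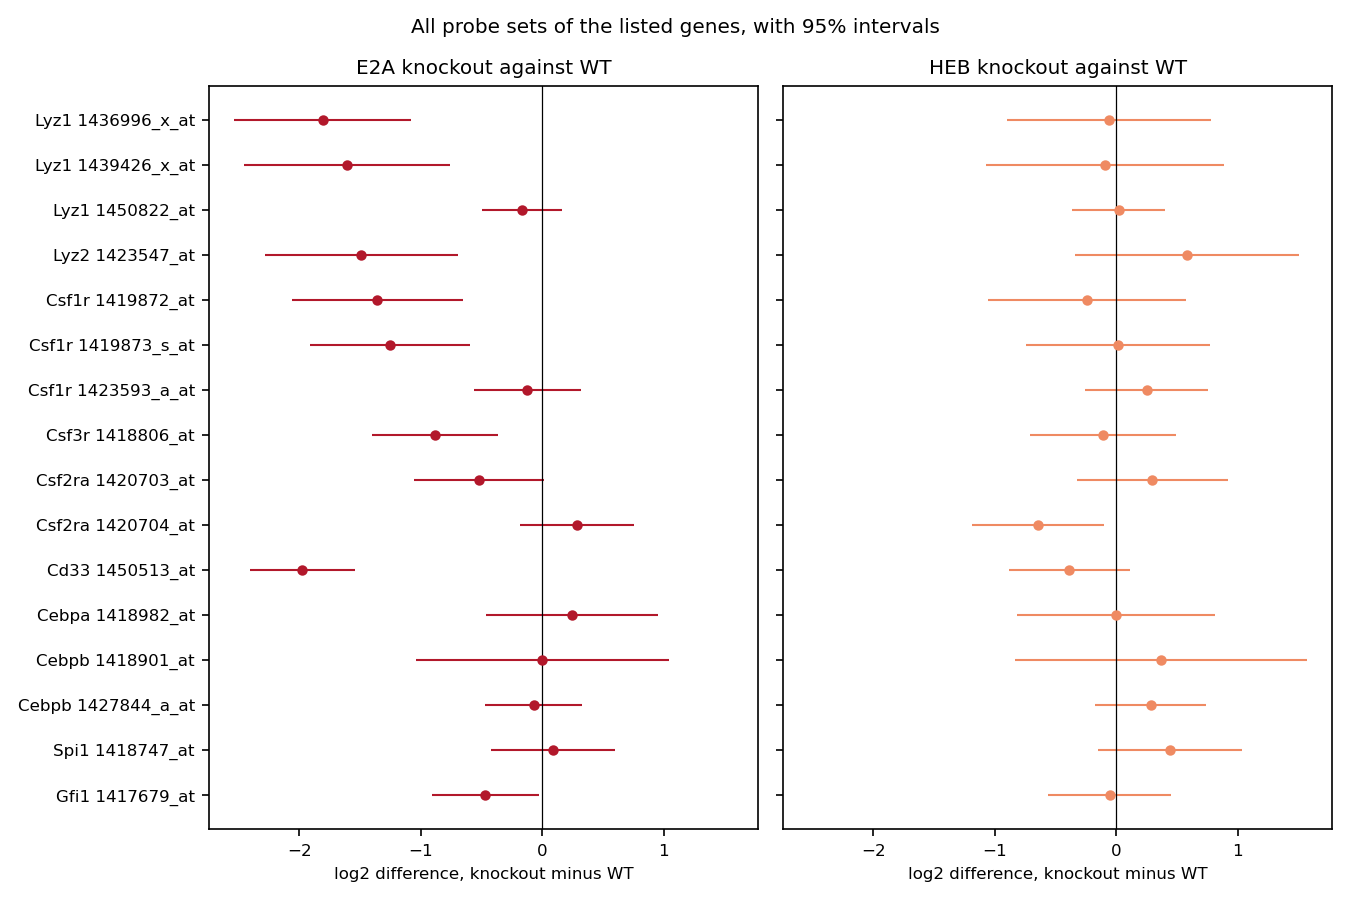
Log2 difference from WT (x axis) of each of the 16 probe sets in E2A knockout (left) and HEB knockout cells (right), with 95% intervals from limma fitted to all non-control probe sets; rows are probe sets named by gene. In E2A knockout cells Cd33 differs by -1.97 while the 2 Csf2ra probe sets differ by -0.52 and 0.29, and the third probe sets of Lyz1 and Csf1r lie close to 0.

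The receptors for colony-stimulating factors differed from one another. Csf1r, the receptor for macrophage colony-stimulating factor, read 7.78, 7.56, 8.10 and 7.98 on the E2A knockout arrays, 8.55 and 9.40 on the HEB knockout arrays and 9.58 and 8.84 on the WT arrays at its brightest probe set, 1419872_at. All E2A knockout arrays were lowest, while the HEB knockout and WT arrays overlapped and spread over about 1 log2 unit. The difference against WT was -1.36 (SE 0.32, limma adjusted p = 0.1159), and it was -2.08 with the hybridization control signal as a covariate and -0.91 as the mean of all probe sets. Probe set 1419873_s_at gave -1.25 (SE 0.28), with 6.11, 5.67, 6.63 and 6.23 on the E2A knockout arrays against 7.63 and 7.19 on the WT arrays. Probe set 1423593_a_at gave -0.12 (SE 0.19), with 5.03, 5.11, 5.40 and 5.45 on the E2A knockout arrays against 5.34 and 5.40 on the WT arrays, which overlapped.

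Csf3r, the receptor for granulocyte colony-stimulating factor, read 5.22, 5.03, 5.67 and 5.47 on the E2A knockout arrays, 5.89 and 6.36 on the HEB knockout arrays and 6.18 and 6.29 on the WT arrays. The E2A knockout arrays lay below all others, and the WT arrays fell inside the range of the HEB knockout arrays. The difference against WT was -0.88 (SE 0.25, limma adjusted p = 0.1850), with leave-one-out values from -0.99 to -0.78.

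Csf2ra, the binding chain of the receptor for granulocyte-macrophage colony-stimulating factor, gave opposite answers at its probe sets. At 1420703_at it read 5.09, 5.06, 4.70 and 5.17 on the E2A knockout arrays, 6.00 and 5.66 on the HEB knockout arrays and 5.22 and 5.85 on the WT arrays. At 1420704_at it read 5.35, 5.18, 5.36 and 5.43 on the E2A knockout arrays, 4.58 and 4.22 on the HEB knockout arrays and 5.32 and 4.77 on the WT arrays. The E2A knockout arrays were thus the lowest at the first probe set and above both HEB knockout arrays at the second. Between E2A and HEB knockout cells the differences were -0.82 (SE 0.23) and 0.93 (SE 0.20), neither past limma's test over all probe sets (adjusted p = 0.2867 and 0.2016). No direction can be given for this gene as a whole, and the mean of both probe sets differed by 0.05.

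Of the transcription factors, Gfi1 read 6.62, 6.27, 6.86 and 6.55 on the E2A knockout arrays, 7.10 and 6.89 on the HEB knockout arrays and 7.02 and 7.08 on the WT arrays. All E2A knockout arrays lay below the rest, E2A_KO replicate 3 by the least, and the difference against WT was -0.47 (SE 0.22, 95% interval -0.98 to 0.03, limma adjusted p = 0.4011). Spi1 read 6.90, 6.80, 6.78 and 6.84 on the E2A knockout arrays, 7.41 and 6.95 on the HEB knockout arrays and 6.41 and 7.08 on the WT arrays. The 4 E2A knockout arrays were close to one another and inside the WT range. Its difference against WT was 0.09 (95% interval -0.47 to 0.65), so a change of more than about 1.57-fold in either direction lay outside the interval.

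Cebpa, the C/EBP factor of granulocyte-monocyte progenitors, read 5.49, 4.61, 4.69 and 4.26 on the E2A knockout arrays, 4.48 and 4.54 on the HEB knockout arrays and 4.51 and 4.52 on the WT arrays. E2A_KO replicate 1 stood above the other 7 arrays, which lay within 0.43 of each other. The difference of 0.24 (SE 0.32) was 0.00 without that array. Cebpb, a C/EBP factor of mature and activated myeloid cells, read 4.92, 4.07, 5.35 and 4.82 on the E2A knockout arrays, 4.70 and 5.62 on the HEB knockout arrays and 5.39 and 4.20 on the WT arrays. The genotypes overlapped and the WT arrays lay 1.19 apart, so that the difference was 0.00 with a 95% interval of -1.01 to 1.01, -0.59 without WT replicate 2 and 0.59 without WT replicate 1. Its second probe set, 1427844_a_at, stayed below the array median on all 8 arrays.

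**Figure D3:**
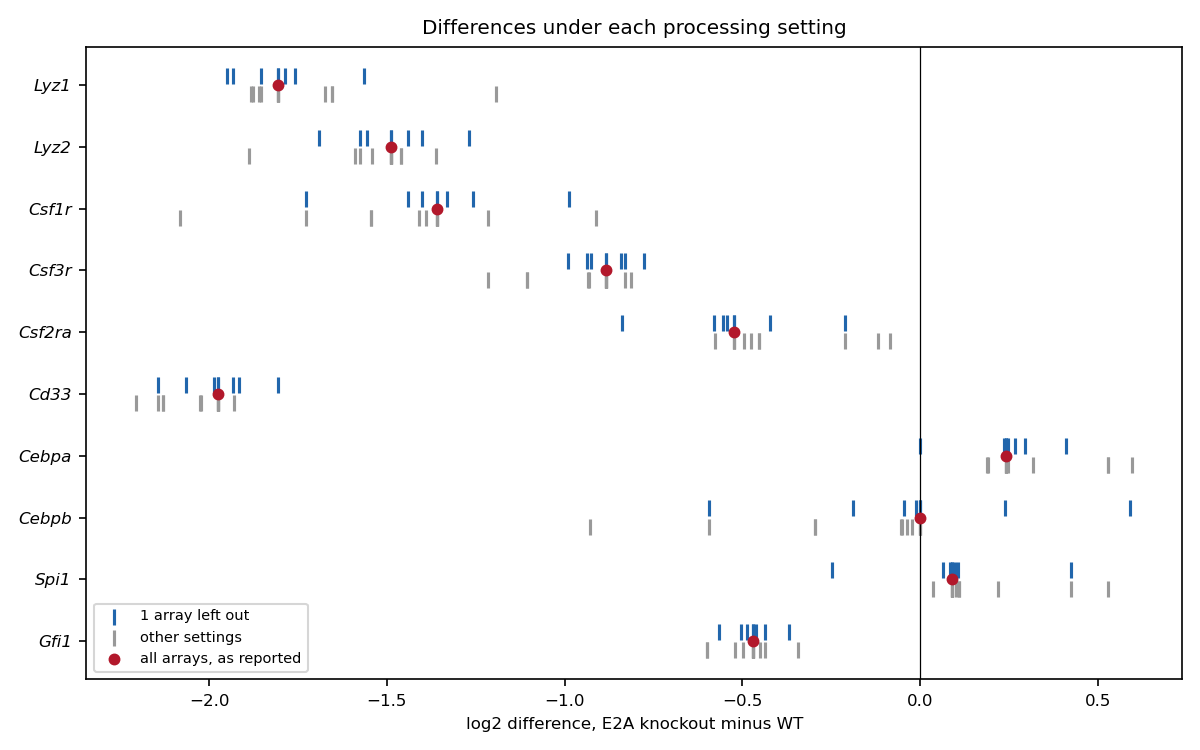
Log2 difference of each listed gene, E2A knockout minus WT (x axis), as reported (filled points), with 1 array left out (upper ticks) and under the other processing settings (lower ticks). Lyz1, Lyz2, Csf1r, Csf3r, Csf2ra, Cd33 and Gfi1 keep a negative difference under each setting drawn, Cebpb and Spi1 lie on both sides of 0, and Cebpa reaches 0.00 without E2A_KO replicate 1.

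HEB knockout cells were then set against WT cells. None of the 10 genes was called, as was no gene of the whole table (0% of 11957), and none of the 10 had an unadjusted p under 0.05, against 2.61% of tested genes. The differences ran from -0.39 for Cd33 (95% interval -0.96 to 0.19) to 0.58 for Lyz2. Lyz1 differed by -0.06 (95% interval -0.92 to 0.79), Csf1r by -0.24, Csf3r by -0.11, Spi1 by 0.44 and Gfi1 by -0.05. Arrays lay apart for Cd33, with HEB knockout below WT (11.4% of tested genes), and for Lyz2, with HEB knockout above WT (23.4%). Without HEB_KO replicate 1 and WT replicate 2 these differences were -0.61 for Cd33 and 0.81 for Lyz2. At the level of probe sets, Csf2ra 1420704_at alone of the 16 had an unadjusted p under 0.05 (3.12% of all probe sets), with a difference of -0.65 (SE 0.23, limma adjusted p = 1). With 2 arrays in each genotype the interval of each of the 10 genes reached to a change of 1.55-fold or more on at least one side.

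Between E2A and HEB knockout cells 9 of the 10 differences were negative (median -0.80, against -0.16 over all tested genes). The arrays did not overlap for 8 of the 10, each lower in E2A knockout cells (21.6% of tested genes). Cd33 was the single gene called, where 0.1% of tested genes were called lower, and it was not called over all probe sets (adjusted p = 0.0803, with 0.00222% called lower). An unadjusted p under 0.05 was reached by 6 of the 10, all lower, against 13.8% of tested genes lower at this level. The counts of 9, 8 and 6 take Csf2ra as lower by its brightest probe set, although its other probe set was higher by 0.93. Without HEB_KO replicate 1 and WT replicate 2 Cd33 differed by -1.53 (limma adjusted p = 0.6591), Lyz1 by -1.80 and Lyz2 by -2.39. Lyz1 differed by -1.74 (SE 0.33, limma adjusted p = 0.0890), Csf1r by -1.12 (SE 0.32, limma adjusted p = 0.1791) and Csf3r by -0.77 (SE 0.25, limma adjusted p = 0.2063). Spi1 differed by -0.35 (SE 0.25) with its arrays apart, the 4 E2A knockout arrays reaching up to 6.90 and the HEB knockout arrays starting at 6.95. Both comparisons of E2A knockout cells use the same 4 arrays, so the negative signs they share are not separate evidence.

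Other myeloid genes were read in 4 lists chosen by function. Among growth factor receptors other than the 3 above, 0 of 8 tested genes were called by limma in E2A knockout against WT cells and 1 had an unadjusted p under 0.05 (median difference -0.14), where 0.443% and 13.4% of all tested genes were so. That gene was Kit, the stem cell factor receptor, at -2.08 (SE 0.41, adjusted p = 0.0823), followed by Csf2rb, the signalling chain shared by the IL-3, IL-5 and GM-CSF receptors, at -1.27 (SE 0.58, adjusted p = 0.3830). Among other transcription factors 0 of 12 were called and 2 had an unadjusted p under 0.05 (median -0.28), Id2, an inhibitor of E proteins, at -2.15 (SE 0.66) and Cebpg at -0.67 (SE 0.29). Irf8, a factor of monocyte and dendritic cell development, read 10.60 to 12.05 on E2A knockout, 12.26 and 11.50 on HEB knockout and 11.34 and 11.84 on WT arrays, which overlapped.

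Products that depend on PU.1 or C/EBP in myeloid cells had 0 of 10 called, 7 of 10 positive and a median of 0.33. Cd68, a lysosomal glycoprotein of macrophages, had the smallest p at 1.33 (SE 0.39, adjusted p = 0.2012), then Fcer1g, a signalling adaptor of Fc receptors, at 0.81 (SE 0.37, adjusted p = 0.3933), and Cd68 alone had an unadjusted p under 0.05. Receptors that bind sialic acid, the family of Cd33, had 0 of 4 called and 0 with an unadjusted p under 0.05 (median 0.41), with Cd22 at 1.10 (SE 0.58) and Siglech at 0.79 (SE 0.53). Whether these differences depart from that of Cd33 was not tested. In HEB knockout against WT cells none of the 34 genes of these lists was called or had an unadjusted p under 0.05, with medians from -0.21 to 0.18. Of all tested genes 0% were called and 2.61% had such an unadjusted p, so this absence says little about the lists. The smallest p in each list were those of Kit (-0.50) and Flt3 (0.21), Gfi1b (0.82) and Nfil3 (-0.54), Cd22 (0.51) and Siglec1 (-0.11), and Cd68 (0.67) and Ncf4 (0.29). Between E2A and HEB knockout cells 0 of these 34 genes were called (0.117% of all tested genes) and 3 had an unadjusted p under 0.05 (16.5% of all tested genes), Kit (-1.58), Cebpd (-1.68) and Gfi1b (-1.19), with Il3ra (0.55) next among the receptors. In the lists of sialic acid binding receptors and of PU.1 or C/EBP products the smallest p were those of Siglech (0.91) and Cd22 (0.59), and of Fcgr1 (0.42) and Tyrobp (0.60).

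**Figure D4:**
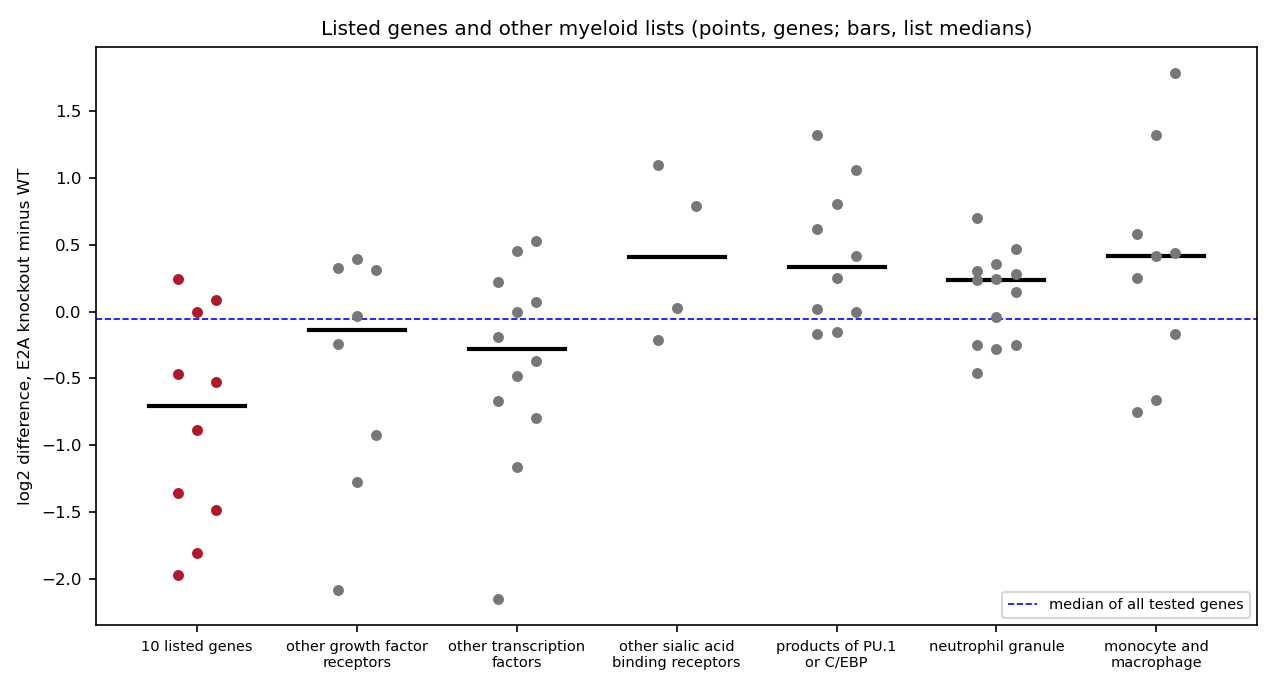
Log2 difference, E2A knockout minus WT (y axis), of the 10 listed genes, 4 further myeloid gene lists and 2 marker lists; points are tested genes, bars list medians and the dashed line the median of all tested genes. The listed genes have a median of -0.70, the growth factor receptors -0.14, the other transcription factors -0.28, and the remaining 4 lists medians above 0.

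Markers of monocytes and macrophages and of neutrophil granules were read on the same arrays. The summed linear intensity of 12 monocyte and macrophage markers was 1579 to 2785 on E2A knockout arrays. It was 1563 to 1868 on HEB knockout and 1851 to 1911 on WT arrays. This sum thus spread around WT on the E2A knockout arrays, while Csf1r and Lyz2 lay below WT on all of them. Ctss, the brightest of the 12 on every array, weighed most in the sum and differed by -0.17 between E2A knockout and WT cells. The list was split, as Cd14, Ccr2, Cd68, Ms4a6c and Fcgr1 had every E2A knockout array above WT, and Cx3cr1 and F13a1 every one below. Such a pattern below WT was seen in 15.4% of tested genes, and the share above WT was not counted. Cd14, Fcgr1 and F13a1 were read near the array median, above it on 2, 4 and 4 of the 8 arrays. Cd14 and Fcgr1 differed by only 0.42 and 0.25. Of these 12, 9 were tested, 0 were called (0.443% of tested genes) and 3 had an unadjusted p under 0.05 (13.4%) in E2A knockout against WT cells, Ms4a6c (1.79) and Cd68 higher and F13a1 (-0.75) lower. The sum of 14 neutrophil granule genes was 2601 to 5561 on E2A knockout, 4538 to 6722 on HEB knockout and 2540 to 3059 on WT arrays. It was thus highest in the HEB knockout array that also had the highest Lyz2, and none of its 13 tested genes was called or had an unadjusted p under 0.05 in E2A knockout against WT cells. In HEB knockout against WT cells 12 of the 13 were positive with a median difference of 2.60, 0 were called (0% of tested genes) and 5 had an unadjusted p under 0.05 (2.61%), beside a median of 0.09 over all tested genes. The part of cells with these markers in the differences given above was not tested.

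Markers of the sorted progenitor itself differed with genotype. The sum of the 10 genes was 9742 to 13805 on E2A knockout, 20866 to 21264 on HEB knockout and 21856 to 24099 on WT arrays. Dntt, the brightest of the 10 on every array, weighed most in this sum. Its own difference from WT in E2A knockout cells was -0.96 (limma adjusted p = 0.1654). Of the 10 genes, 2, Il7r and Notch1, fell in E2A knockout against WT cells, where 0.393% of tested genes were called lower. All 10 differences were negative (median -1.05, beside -0.05 over all tested genes), while the arrays overlapped for Flt3, Cd34 and Ctla2a. For the others the E2A knockout arrays lay wholly below WT, as in 15.4% of tested genes. An unadjusted p under 0.05 was reached by 8 of the 10, all lower, against 9.8% of tested genes lower at this level. Il7r, the chain of the IL-7 receptor known as CD127, on which the cells were sorted, read 7.89 to 9.04 on E2A knockout, 10.88 and 10.50 on HEB knockout and 10.51 and 10.91 on WT arrays. At their brightest probe sets Cd33, Lyz1, Lyz2, Csf1r, Csf3r, Csf2ra and Gfi1 had the E2A knockout arrays below all HEB knockout and WT arrays. The sum of this list also had every E2A knockout array below all others. HEB knockout arrays lay below WT in the sum and above WT for Lyz2. The part of the makeup of the sorted cells in these patterns was not tested.

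**Figure D5:**
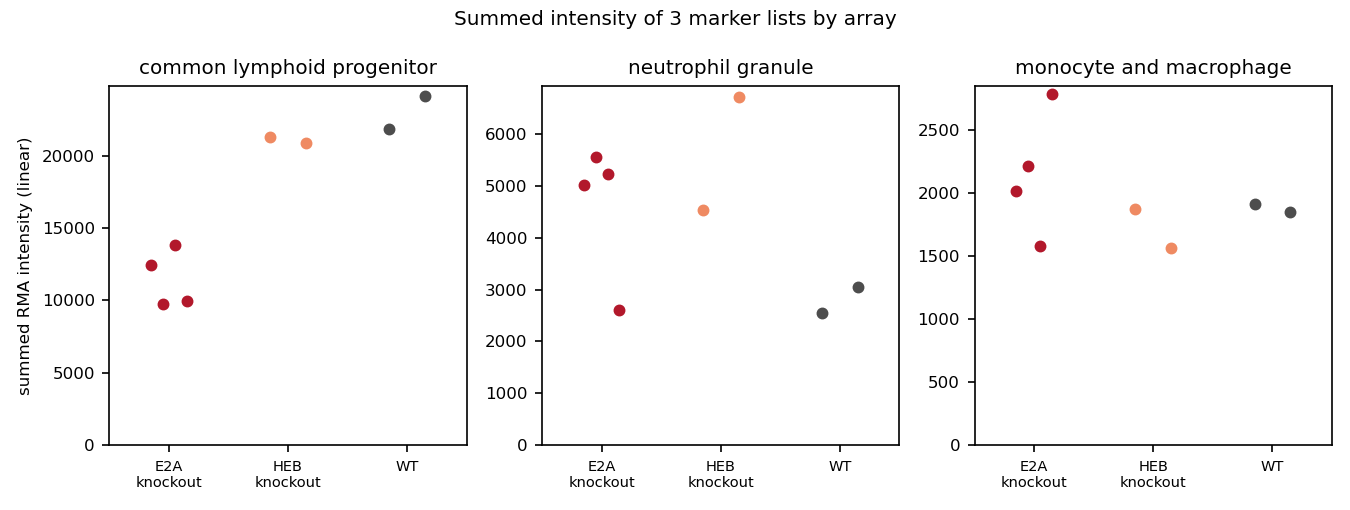
Summed linear RMA intensity (y axis, from 0) of markers of common lymphoid progenitors, neutrophil granules, and monocytes and macrophages on each array of E2A knockout, HEB knockout and WT cells; points are arrays. The progenitor markers sum to 9742 to 13805 on E2A knockout and 21856 to 24099 on WT arrays, and the monocyte and macrophage markers to 1579 to 2785 and 1851 to 1911. Dntt, Mpo and Ctss, the brightest genes of these lists in turn, weigh most in the sums.

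The tested genes with profiles closest to those of the listed genes were found by the root mean square difference over the 8 arrays after each profile was centred on its own mean. For Lyz2 they were Vamp1 (0.33 log2 units), Angpt1 (0.33), Slc35b3 (0.37) and Il27ra (0.38). Those closest to Csf1r were Rad52 (0.15), Ddx58 (0.23), Tespa1 (0.26) and Bnip5 (0.27). Next to Csf3r stood 2610507I01Rik (0.14), Rnf213 (0.14), Ccr7 (0.15) and Gpr146 (0.17). As the choice by profile fixes, all 12 had E2A knockout arrays below both WT arrays, with differences from -1.68 for Angpt1 to -0.54 for Gpr146, and none was called by limma (adjusted p from 0.0866 to 0.3722). Rad52, a DNA repair protein, read 3.83, 3.97, 4.16 and 4.35 on the E2A knockout arrays, 4.70 and 5.39 on the HEB knockout arrays and 5.76 and 4.89 on the WT arrays, with replicate 1 of WT and replicate 2 of HEB knockout as the higher arrays, as for Csf1r.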

How the data were processed

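The deposited RMA intensity values, 1 per probe set and array, were made by the authors from 8 arrays of amplified, biotin-labelled RNA, per the labels and the submitters' processing notes; the RMA version was not given in the sources used here. Values were linear; their log2 was used without further normalization. Probe sets were named from GEO's platform annotation. For each of 18193 genes the brightest probe set on average was kept, and the 11957 genes with 2 or more arrays above the array median were tested. The brightest probe sets of all 10 listed genes lay above it on all 8 arrays. All 8 arrays entered 1 fit in limma 3.58.1 (R 4.3.3), with genotype as the factor (5 residual degrees of freedom), two-sided, with Benjamini-Hochberg adjustment and a threshold of 0.05, and again to all 45037 non-control probe sets without a filter. The number of arrays limits precision. The script was tested on simulated data.

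The listed genes, gene lists and markers were chosen with earlier results of these data known. Named genes were the 10 with every probe set, Tcf3 and Tcf12, from each further myeloid list the called genes or otherwise the 2 with the smallest p per comparison, and the 4 closest profiles for Lyz2, Csf1r and Csf3r. Irf8, the genes named among the markers and genes with an unadjusted p under 0.05 were named after their values were seen. The marker lists of dendritic, B-lineage, T-lineage, NK, erythroid and mast cells had no gene called in any comparison (limma, adjusted p under 0.05). Of all tested genes 0.443% were called in E2A knockout against WT, 0% in HEB knockout against WT and 0.117% in E2A against HEB knockout cells. Closest to the threshold were Blnk of the B-lineage list (-3.24, limma adjusted p = 0.0521) and Cox6a2 of the dendritic list (-1.80, limma adjusted p = 0.0598). Both were lower in E2A knockout than in WT cells. Alternatives are given in the closing section. Promoter letters come from RefSeq, GRCm38.p6.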

Additional observations from a re-analysis of the deposited data

How the results depend on the processing

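In E2A knockout against WT cells the number of listed genes called, 1 in the reported fit (Cd33), was 2 with eBayes trend and robust and with array weights, and 0 with the hybridization control covariate, with the replicate block, with a threshold of 0.01 and with WT 2 and HEB_KO 1 both left out. It was 0 to 2 with 1 array left out. Over probe sets the count of 1 was 0 with the compared genotypes alone, the covariate, the replicate block, the threshold of 0.01 and both arrays left out, and 0 to 1 with 1 array left out. In E2A against HEB knockout cells the count of 1 was 2 with trend and robust, 3 with array weights (Lyz2, Lyz1 and Cd33), and 0 with cyclic loess, the compared genotypes alone, the covariate, the replicate block, the threshold of 0.01 and both arrays left out, and 0 to 2 with 1 array left out. Over probe sets the count of 0 was 1 with array weights. In HEB knockout against WT cells it was 0 in every setting run. The number of all tested genes called moved with the setting as well. In E2A knockout against WT cells it was 53 of 11957 in the reported fit, 91 with trend and robust and 120 with array weights. With the replicate block it was 12, with the threshold of 0.01 it was 3 and with the covariate 1. In E2A against HEB knockout cells these numbers were 14, 42, 91, 3, 1 and 1, and 10 with cyclic loess. The cause of these changes was not tested, and the settings that leave arrays out also rest on fewer arrays.

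With the replicate block, Cd33 differed by -2.13 from WT (adjusted p = 0.0732). Same-numbered arrays did not deviate together (correlations of deviations of -0.28 for HEB_KO with WT, -0.15 and -0.09 for E2A_KO with WT, and 0.15 and -0.01 for E2A_KO with HEB_KO), so the numbers were not taken to pair the arrays, and the crossed pairing, chosen after seeing the data, gave a count of 0 in all 3 comparisons. Of 591 differences of single genes under other settings, 22 changed sign, none of them past the test in either fit; they belong to Cebpa, Cebpb, Spi1, Gfi1, Csf1r, Csf3r and Csf2ra. The filter at the 75th percentile removed Csf2ra, Cebpa and Cebpb. In E2A against HEB knockout cells the share of lower genes among all called was 70% with cyclic loess, against 85.7%. Signal near background, as at Lyz1 1450822_at and Cebpb 1427844_a_at, limits the differences that can be measured there. In settings that leave a genotype with 1 array, that array is assumed to vary like the other genotypes.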
